A study of Mus musculus with 2 samples.

Results

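The 45 genes described here encode nuclear-encoded subunits of mitochondrial complex I, assembly factors that share their name stem, and Ndufa4, later assigned to complex IV. Related names that the rule below does not match, such as Ndufb1-ps, were left out, so the list of subunits need not be complete. They were taken as every gene of the tables whose symbol is Nduf followed by a, b, c, s, v, ab or af and a number, 45 of 18168 annotated mouse genes with at least 1 read. Adrenal glands of male mice of the strain B6CASTF1/J, a hybrid of C57BL/6 and CAST/EiJ parents, were taken at an age of 25 days and their total RNA was sequenced as long reads. The 2 libraries form 1 group, replicates 1 and 2, with no treatment and no second genotype, so no condition was compared. The labels call them biological replicates, and give an RNA input of 1 µg for replicate 2 and none for replicate 1. One set of labels gives a single animal for both libraries and another gives different animals. Whether the spread between the libraries includes differences between animals is therefore not known, and it may be technical. Every p-value below compares 2 libraries and not 2 conditions.

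Complex I oxidises NADH in the mitochondrial matrix, passes the electrons through a flavin and a chain of iron-sulfur clusters to ubiquinone, and pumps protons across the inner membrane. Its core subunits are conserved from bacteria, and part of them, the membrane-bound ones, are encoded in mitochondrial DNA. The supernumerary subunits surround this core, and assembly factors help to build the enzyme without being part of it. In the adrenal cortex, mitochondria also hold the cytochrome P450 enzymes of steroid synthesis.

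The reads in annotated mouse genes numbered 752432 in replicate 1 and 1210671 in replicate 2, and levels are given per 1000000 of these (CPM). Each long read was taken to stand for a molecule, so levels of different genes were compared without dividing by length. Unequal recovery of reads by length was not corrected, so levels of genes of unlike length are comparable only in this sense. A count of 0 allows up to 3 reads, which is 3.99 CPM in replicate 1 and 2.48 CPM in the deeper replicate 2. The libraries differed in the tissues they held. The 7 markers of steroid-producing cortex summed to 61539 and 25008 CPM and the 6 chromaffin markers to 9421 and 7144 CPM. In CPM, 6 cortex markers were lower in replicate 2 and Mc2r was higher, at 39.9 and 55.3 CPM. Of the chromaffin markers 5 were lower and Ddc was higher, at 9.3 and 29.7 CPM. The 8 liver markers summed to 142 CPM in replicate 1, with 5 of 8 at 0, and to 46266 CPM in replicate 2, with none at 0. The 13 skeletal muscle markers summed to 4420 CPM, with none at 0, and to 6.61 CPM, with 10 of 13 at 0, among them Acta1, Ckm and Atp2a1. The 5 brown fat markers summed to 2154 and 1813 CPM. Of these, 4 were lower in replicate 2, Ucp1 and Cidea among them, but Elovl3 was higher, at 62.5 and 230 CPM. Liver, muscle and brown fat express complex I too, so these values stand beside every difference between libraries below, and their part in it was not tested. Fewer cells of a type and less RNA per cell cannot be told apart in such bulk samples.

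Printed here are the sequences on which the clearest protein-changing choices among the members rest, taken from the GENCODE M21 transcripts on the plus strand of mm10 chromosome 17. Ndufv3 makes a short and a long message, and the reads tell them apart by what follows the exon that ends at base 31521692. In the short form it is joined to the last exon, which begins at base 31531110, and in the long form to a coding exon at chr17:31527310-31528401. Capitals mark the 20 bases after each junction.
Ndufv3 short form: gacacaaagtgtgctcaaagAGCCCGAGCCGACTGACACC
Ndufv3 long form, into the long exon: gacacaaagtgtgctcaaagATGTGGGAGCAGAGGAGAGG
Ndufv3 long form, out of the long exon: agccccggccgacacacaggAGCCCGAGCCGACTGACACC

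Ndufa7 can skip a coding exon of 50 bases, chr17:33825601-33825650, which is not a multiple of 3 and so changes the reading frame. The exon is shown in capitals between 20 bases of each neighbour, followed by the coding sequence of the skipping form with its stop codon in capitals, 40 codons after the start and 51 bases of it before the junction.
Ndufa7 exon: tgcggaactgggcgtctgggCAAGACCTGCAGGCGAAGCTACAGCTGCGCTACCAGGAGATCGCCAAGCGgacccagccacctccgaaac
Ndufa7 skipping form: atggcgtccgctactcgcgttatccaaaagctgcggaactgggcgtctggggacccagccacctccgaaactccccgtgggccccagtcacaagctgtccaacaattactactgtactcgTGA

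All 45 members were detected in both libraries, with 6668 and 11265 reads in 350 and 462 transcript models. Together they took 0.886% and 0.93% of the gene reads, 9083 ± 313 CPM (SD, n = 2). The median member stood at 179 CPM, between 10.3 CPM for Ndufaf5 and 650 CPM for Ndufa4. Beside this, the median was 298 CPM over 45 nuclear gene records of complexes II to V, counted elsewhere as 44 genes. It was 60.8 CPM over 75 mitochondrial ribosomal protein genes and 11.3 CPM over all 18168 genes.

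The 7 nuclear core subunits held 34.1% and 28.3% of the members' reads. Ndufv1, which binds the flavin and takes the electrons from NADH (chr19:4007384-4012806), stood at 719 and 539 CPM in replicates 1 and 2. Ndufs1, the large iron-sulfur subunit next to it (chr1:63143596-63176833), stood at 617 and 488 CPM. Ndufv2, a further iron-sulfur subunit of the NADH module (chr17:66078638-66101559), stood lower than both, at 258 and 183 CPM. All of these were higher in replicate 1 on this scale.

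The core subunits of the ubiquinone module described here had closer levels in the libraries on this scale. Under TMM the order turned, with log2 ratios of replicate 2 to replicate 1 of 0.50 for Ndufs7, 0.34 for Ndufs3 and 0.32 for Ndufs8, against -0.07 for Ndufv1, 0.01 for Ndufs1 and -0.14 for Ndufv2. Ndufs7, which carries the last iron-sulfur cluster of the chain (chr10:80249121-80256794), stood at 292 and 325 CPM. Ndufs3 (chr2:90894634-90904827) stood at 290 and 288 CPM and Ndufs8 (chr19:3908863-3912774) at 238 and 233 CPM. Ndufv1 and Ndufs1 thus had means of 629 and 552 CPM, and Ndufv2, Ndufs7, Ndufs3 and Ndufs8 had means from 221 to 309 CPM.

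Ndufa4, first isolated with complex I and later assigned to cytochrome c oxidase (complex IV), had the highest mean over all its reads, at 723 and 577 CPM (chr6:11900292-11907497). In known transcripts it had 260 and 511 reads, fewer than the 494 and 586 of Ndufv1. The 29 supernumerary subunits held 54.7% and 62.6% of the members' reads, with means from 54.5 CPM for Ndufs5 to 463 CPM for Ndufa10. Ndufa10, a matrix-facing subunit of the membrane arm, stood at 478 and 448 CPM. Ndufb9 stood at 251 and 408 CPM, Ndufb8 at 266 and 298 CPM, and Ndufa9, a peripheral arm subunit close to the ubiquinone site, at 259 and 233 CPM. By module, the N module (8 genes) summed to 2246 and 1943 CPM, the 3 further peripheral subunits to 614 and 652 CPM, and the 20 genes of the membrane arm and the acyl carrier protein to 3426 and 4225 CPM.

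The 8 assembly factors were the rarest class, 275 and 268 CPM in all, 3.1% and 2.89% of the members' reads. Ndufaf7, a methyltransferase, led with 69.1 and 76.8 CPM. Ndufaf4, which acts early in assembly together with Ndufaf3, followed with 66.5 and 38 CPM, and Ndufaf1, which acts on the membrane arm, with 51.8 and 40.5 CPM. Ndufaf5, which hydroxylates Ndufs7, was the lowest member with 8 and 12 reads, and its partner Ndufaf8 had 19 and 50. Ndufaf2, a late assembly factor, had 9 and 18 reads, Ndufaf6 11 and 18, and Ndufaf3 19 and 39. The 5 lowest members were thus all assembly factors, and none of their differences between libraries passed the test on the gene-read scale. Ndufaf8 passed under TMM, with a log2 ratio of 1.03 (adjusted p = 0.0199 by an exact binomial test), and under size factors, with 1.09 (adjusted p = 0.014 by the same binomial exact test). Of 13 assembly factors with other names, 12 were detected in both libraries. Aifm1, which also has other roles in mitochondria, led them at 428 and 325 CPM, ahead of Tmem70 at 259 and 225 CPM and Foxred1 at 150 and 111 CPM. Acad9 stood at 98.3 and 104 CPM and Ecsit at 93 and 66.1 CPM, and Coa1 had 0 reads in both.

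The mitochondrially encoded subunits were scarce in these tables. The 7 mt-Nd genes had 154 and 148 reads in all, 205 and 122 CPM, below the level of Ndufs3 alone. How far these counts reflect the level of mt-Nd transcripts in the tissue was not tested. Most abundant were mt-Nd2 with 51 and 64 reads and mt-Nd1 with 53 and 30, followed by mt-Nd4 with 24 and 33 and mt-Nd5 with 25 and 14. mt-Nd3 had 0 and 4 reads, mt-Nd4l 0 and 1, and mt-Nd6, the only one of them on the light strand, 1 and 2. Some genes with related names were left out by the rule, and whether they encode subunits was not tested. Among them Ndufb1-ps had 101 and 200 reads, Ndufa4l2, a relative of Ndufa4, had 21 and 18, and Ndufb4b and Ndufb4c had none.

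**Figure D1:**
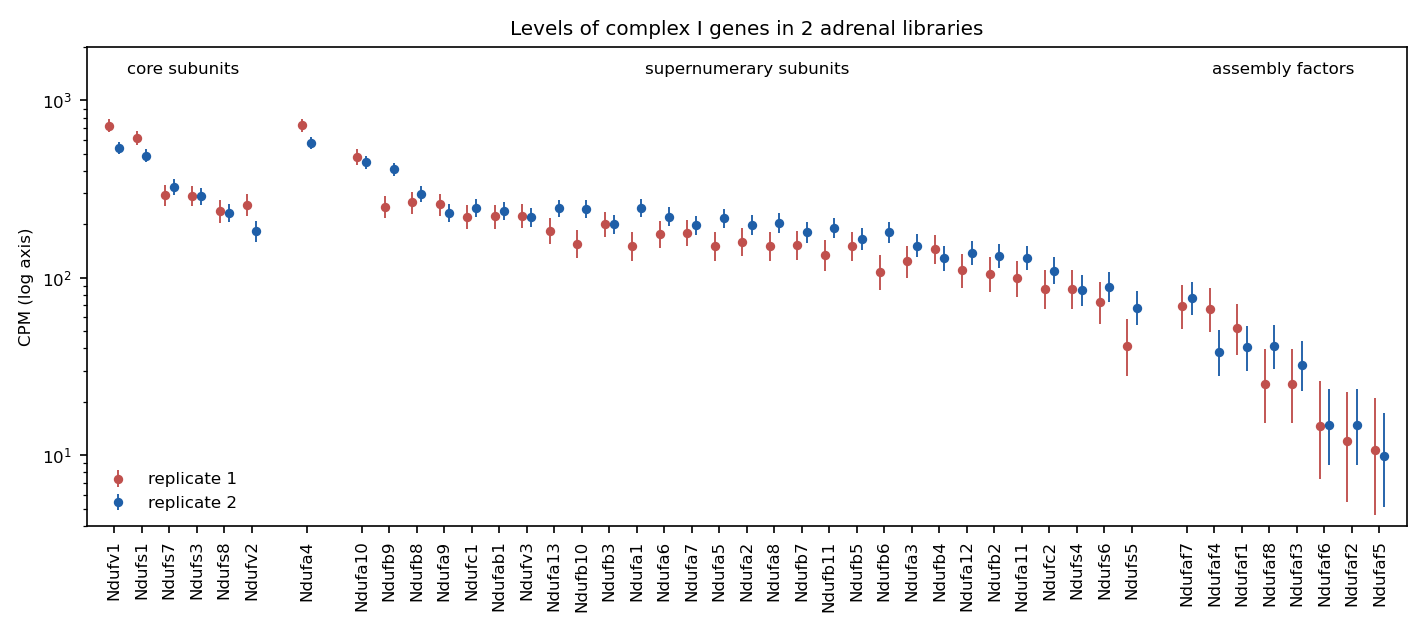
Level of 44 of the 45 genes in CPM (log axis) in replicate 1 (red) and replicate 2 (blue), by class and in order of the mean, with 95% Poisson intervals for counting error. The core subunits shown lie above 180 CPM in both libraries, all 8 assembly factors lie below 77 CPM, and the long core subunits Ndufv1, Ndufs1 and Ndufv2 sit higher in replicate 1 on this scale while most supernumerary subunits sit higher in replicate 2.

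Between the libraries, 8 members were higher and 5 lower in replicate 2 when scaled to gene reads, and 32 did not pass. The test was Fisher's exact test, two-sided, its p-values adjusted after Benjamini and Hochberg across 11382 genes, with a threshold of 0.05. Over all genes tested 36.8% were called, 11.5% as higher and 25.3% as lower, so a share of 13 in 45 is no more than the background. The median log2 ratio of replicate 2 to replicate 1 was 0.16 over the members and -0.34 over all genes, 0.15 over complexes II to V and 0.12 over mitochondrial ribosomal protein genes. Of 43 gene records of complexes II to V tested, 18 were called higher and 5 lower, and of 75 mitochondrial ribosomal protein genes 6 and 11. Under TMM these counts were 31 and 1 for complexes II to V and 23 and 3 for the ribosomal proteins, and under DESeq2 size factors 33 and 1, and 28 and 3. Of 11 further assembly factors tested, 0 were called higher and 3 lower, Aifm1, Foxred1 and Tmem126b, whereas under either of those scalings 1 was called higher and 0 lower. Of 4 mt-Nd genes 0 were called higher and 2 lower, mt-Nd1 and mt-Nd5, with 2 lower under TMM and 1 under size factors.

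The members called higher were all small supernumerary subunits. Ndufb9, of the membrane arm, rose from 189 to 494 reads, a log2 ratio of 0.70 (counting SE 0.12, adjusted p = 5.14e-08 by Fisher's exact test). Ndufa1, a short membrane subunit encoded on the X chromosome, rose from 113 to 300 reads, a log2 ratio of 0.72 (SE 0.16, adjusted p = 2.11e-05 by the same exact test). Ndufb10 rose from 117 to 297 reads and Ndufb6 from 81 to 219, with log2 ratios of 0.65 and 0.74. Ndufa5, the small subunit of the ubiquinone module, rose from 114 to 262 reads, a log2 ratio of 0.51. The others were Ndufb11, also on X, Ndufa8 and Ndufa13, with log2 ratios from 0.42 to 0.50. All 8 were also called higher under TMM and under DESeq2 size factors. With known transcripts alone and without incomplete splice matches, however, Ndufa1 (0.31 and 0.32) and Ndufa5 (0.27 and 0.29) no longer passed. Neither of these settings could test Ndufa13, whose reads were nearly all incomplete splice matches and none of them in known transcripts. Ndufa13 (0.39) did not pass with the deeper library thinned.

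The members called lower were Ndufv2, Ndufv1, Ndufs1, Ndufa4 and the assembly factor Ndufaf4. Their log2 ratios were -0.49 (SE 0.14) for Ndufv2, -0.41 (SE 0.08) for Ndufv1, -0.34 (SE 0.09) for Ndufs1, -0.32 (SE 0.08) for Ndufa4 and -0.81 (SE 0.29) for Ndufaf4, with adjusted p-values by Fisher's exact test of 0.00253, 6.74e-06, 8.98e-04, 4.75e-04 and 0.0202. With known transcripts alone Ndufs1 (-0.27) no longer passed and Ndufa4 turned positive (0.31). Ndufaf4 (-0.78) did not pass with the deeper library thinned. The calls also depended on the scale. With TMM factors a gene without change has a log2 ratio of -0.35, and with DESeq2 size factors one of -0.40. Under TMM 28 members were called higher and 0 lower, against 17.7% and 13.7% of all genes, and the ratios of Ndufs1 and Ndufa4 turned to 0.01 and 0.02. Under size factors 31 were called higher and 0 lower, against 19.3% and 12.2% of all genes. If libraries of this kind varied with a coefficient of variation of 0.2, edgeR's exact test on the gene-read scale would call 0 members. In it 0 members had an unadjusted p under 0.05. It would call 13.4% of all genes, 6.85% as higher and 6.53% as lower. That test was not run with TMM or size factors.

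A measure that does not depend on the scale is the balance among the members. Replicate 1 held 1.6 supernumerary reads for each core read and replicate 2 held 2.21. The calls do depend on it: of the 7 core subunits 0 were called higher and 3 lower on the gene-read scale, but 3 higher and 0 lower under TMM and 4 and 0 under size factors. None of the 29 supernumerary subunits was called lower on any of these scales. Across the 45 members the log2 ratio and the length of a gene's models, averaged over reads, had a Pearson r of -0.60 on log2 length and a Spearman rho of -0.56. With the longest annotated coding length in its place r was -0.53 and rho -0.55. These are correlations across genes of the same 2 libraries, given without a p.

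A trend of the same sign ran through all genes tested, with a Pearson r of -0.22 and a rho of -0.32 over 11382 genes. Of genes with models from 600 to 1000 bases the median log2 ratio was 0.34 over 603 genes and 0.38 over the 14 members among them. From 1000 to 1500 bases it was 0.03 over 1259 genes and 0.13 over 11 members, and from 1500 to 2500 bases -0.27 over 3699 genes and -0.07 over 7 members. Under 600 bases it was 0.42 over 285 genes and 0.32 over 11 members. The 2 members above 2500 bases, Ndufs1 and Ndufaf4, had a median of -0.57, beside -0.60 over 5536 genes. Read-weighted model length over all genes was 2614 bases in replicate 1 and 2206 in replicate 2, and over the members 1204 and 1099 bases. What part of the differences among members length accounts for was not tested.

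**Figure D2:**
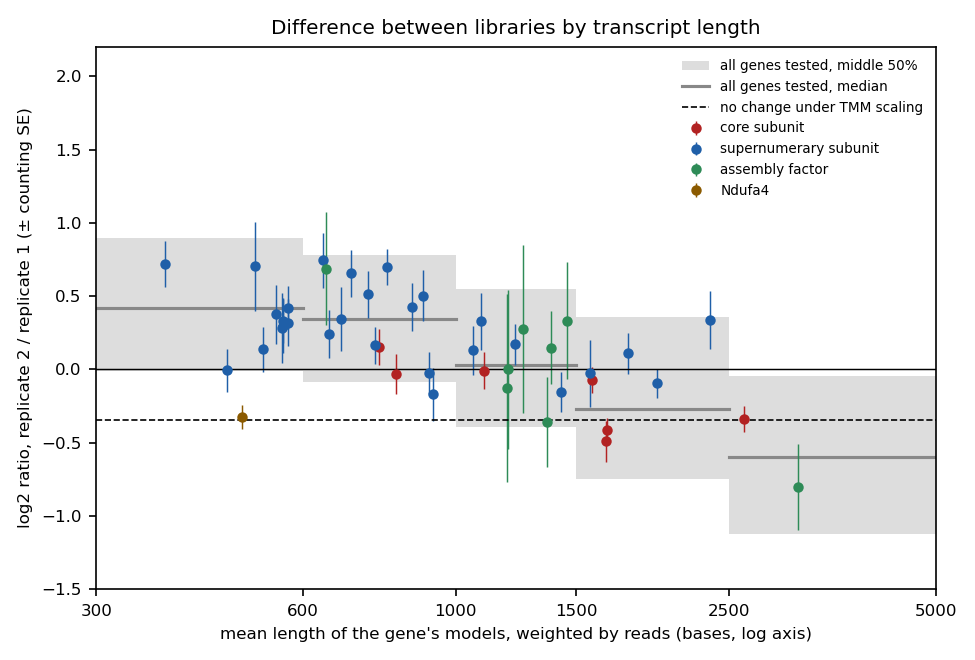
Log2 ratio of replicate 2 to replicate 1 (vertical axis, bars ± counting SE) against the read-weighted length of each gene's models (log axis, bases) for the 45 members by class. Grey bands and lines give the middle 50% and the median of all genes tested in each length range, and the dashed line is no change under TMM at -0.35. The members range from 0.74 for Ndufb6 to -0.81 for Ndufaf4, and the grey medians fall from 0.42 to -0.60.

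Most members were read as a single spliced form. An intron chain is the ordered set of introns of a read, by which models were matched between the libraries. Single-exon reads of a gene, wherever they lay in it, were counted together as a chain. Among 40 members with more than 1 chain and 20 or more reads per library, the leading chain held a median of 90.7% of the gene's reads in replicate 1 and 85.5% in replicate 2, beside 75.9% and 70% over 5612 genes. It held over 80% in both libraries in 24 of the 40. Known transcripts held 81.9% and 81.8% of the members' reads, beside 77% and 75.6% over all genes. Incomplete splice matches, which lack part of an annotated chain, held 11.9% and 12.7%, and reads of the class genomic, which overlap a gene without matching its splicing, 0.51% and 1.1%, beside 3.78% and 5% over all genes.

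In 12 members the next chain held at least 10% of the reads, and at least 5 reads, in each library. They were Ndufv3, Ndufs1, Ndufs8, Ndufs7, Ndufa4, Ndufb3, Ndufb2, Ndufab1, Ndufa7, Ndufaf1, Ndufaf4 and Ndufaf7. In Ndufa4, Ndufs7, Ndufb3 and Ndufaf7 either the leading or the next chain was of incomplete splice matches or single-exon reads. Such reads do not by themselves show a splicing choice. Among the others, only part of the choices touched the protein. The choices described below were picked after the chains had been seen.

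Ndufv3, a supernumerary subunit of the NADH module known to exist as a short and a long form whose balance differs between tissues, used both in these glands. The exon that makes the long form is 1092 bases, 364 codons, and raises the annotated coding length from 312 to 1404 bases. Of the reads that showed the choice, 71 included the exon and 97 skipped it in replicate 1, a share of 42.3% (95% Clopper-Pearson interval 34.7 to 50.1%). In replicate 2, 86 included and 180 skipped it, 32.3% (26.7 to 38.3%). The short form was the leading chain in both libraries, with 57.7% and 66.2% of the gene's reads. The difference in this share did not pass Fisher's exact test over all genes (adjusted p = 0.306), which does not show the shares to be equal. Inclusion of the exon itself was not tested between the libraries. Skeletal muscle markers were present in replicate 1 and nearly absent from replicate 2, liver markers the reverse, and their part in this share was not tested. A further 4-exon chain, a new combination of known splice sites, held 10 and 8 reads.

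Ndufa7, of the peripheral arm, skipped the exon shown above in 7 of 132 reads that spanned it in replicate 1 and 20 of 226 in replicate 2, 5.3% (2.16 to 10.6%) and 8.85% (5.49 to 13.3%). The annotation marks this transcript, Ndufa7-202, as a target of nonsense-mediated decay. A form that keeps an intron, Ndufa7-204, held 14 and 33 reads, 10.4% and 13.8% of the gene. Skipping of an exon of 79 bases in Ndufs4, a subunit needed for a stable NADH module, was rare, with 3 of 63 and 6 of 100 reads, 4.76% and 6%, and the annotation marks that form likewise.

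Ndufs1 was split over 4 chains, the most even use among the core subunits. They combine 2 donor sites of the leading exon, 158 bases apart, with a further exon of 104 bases at chr1:63172154-63172257, and all of these lie upstream of the start codon of Ndufs1-201. The exon was included in 150 of 446 reads in replicate 1 and 186 of 571 in replicate 2, 33.6% (29.3 to 38.2%) and 32.6% (28.7 to 36.6%), so the intervals overlap. It was included with either donor: 36.9% and 30% of reads with the inner donor, and 31.2% and 33.6% with the outer one. M21 annotates the exon only in a retained-intron model and in Ndufs1-212, a partial model of 4 exons, so both chains that carry it with the full coding exons were classed as new combinations of known junctions, with 84 and 120 reads for the more abundant and 54 and 57 for the other. For this reason known transcripts held only 59.5% and 61.4% of the Ndufs1 reads.

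In several members alternative ends left the annotated coding sequence the same. Ndufs8 used the donor of Ndufs8-201 in place of that of Ndufs8-205, 243 bases away, in 25% and 16.9% of reads. Ndufaf1 used that of Ndufaf1-203 in 32.3% and 48.8%, from 31 and 41 reads and with intervals of 16.7 to 51.4% and 32.9 to 64.9%. Ndufb2 split between donors 4 bases apart, with 46.8% and 40.3% at that of Ndufb2-202. Ndufab1, the mitochondrial acyl carrier protein, used the last exon of Ndufab1-201 in 24.2% and 14.5% of reads, and the rest ended in that of Ndufab1-203. Its leading chain, Ndufab1-203, rose from 62.9% to 77.2% of the gene's reads (adjusted p = 0.0136 by Fisher's exact test).

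**Figure D3:**
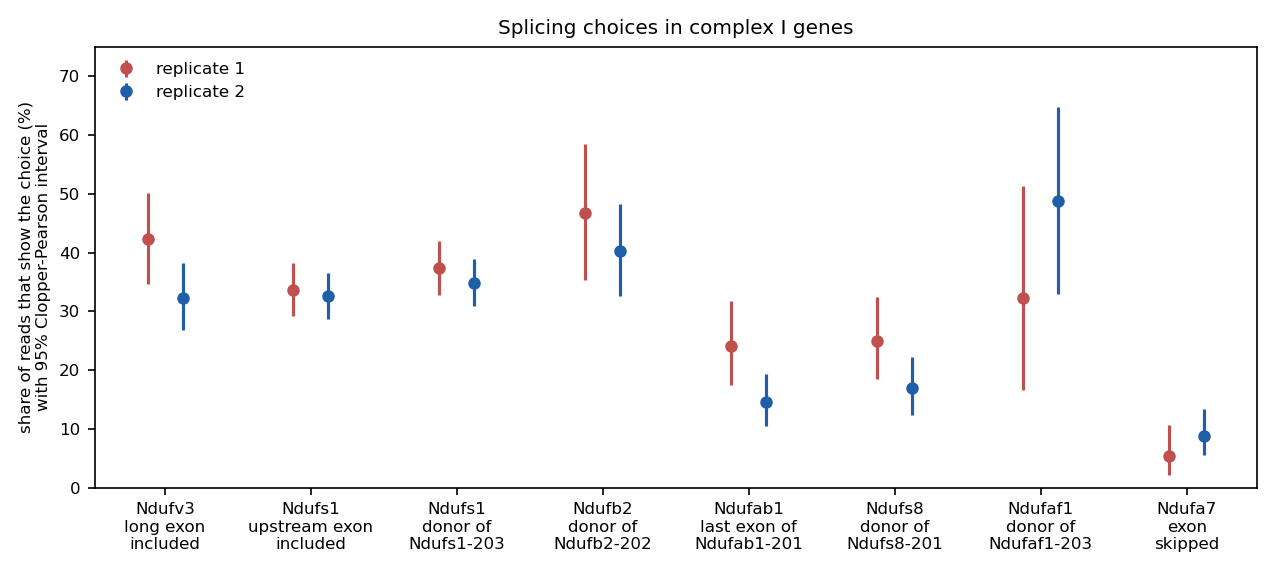
Share of reads, in percent, that made each splicing choice in 7 members in replicate 1 (red) and replicate 2 (blue), with 95% Clopper-Pearson intervals for counting error. The Ndufs1 shares lie within 3 points of each other between libraries, the long exon of Ndufv3 is at 42.3% and 32.3%, and skipping of the Ndufa7 exon stays below 10% in both.

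Other members were read to a large part as models of their 3′ ends. Ndufb3, a membrane arm subunit, had 102 of 151 reads in replicate 1 and 159 of 242 in replicate 2 in a single exon, nearly all of them its last exon, 67.5% and 65.7%, against 47 and 81 for the full chain of Ndufb3-201. Ndufs7 had 74 and 146 reads in a 2-exon chain, an incomplete splice match, 33.6% and 37.1%. The model with most of these reads was 1034 bases long, beside 758 for the full 8-exon chain of Ndufs7-201. It thus held bases beyond 2 exons of that transcript, and their origin was not tested. In Ndufa4 the last 2 exons alone made up 274 of 544 reads in replicate 1 but 170 of 699 in replicate 2, 50.4% and 24.3%, while the full 4-exon chain of Ndufa4-205 had 258 and 506. The lower level of Ndufa4 in replicate 2 rested on these reads: with known transcripts alone its log2 ratio was 0.31, and without incomplete splice matches 0.34. Ndufa13 was a case of its own: 133 and 285 of its reads had the same 4-exon chain, 96.4% and 95.6%, but none of 138 and 298 joined it to the 5′ exon that the only M21 transcript places at chr8:69901881-69902558, which allows a share of up to 2.17% and 1.01%. All its reads therefore fell outside the known class, though that exon lies before the start codon.

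Use of the leading chain differed between the libraries in 6 of 40 members, 2 higher and 4 lower in replicate 2. Without incomplete splice matches 2 of 38 were called, 1 in each direction, beside 6.22% of 4981 genes. With all reads 12.4% of 5612 genes were called, 2.33% as higher and 10.1% as lower. Those that rose were Ndufa4, from 47.4% to 72.4%, and Ndufab1. Those that fell were Ndufa1, from 96.5% to 71.3%, Ndufb6, from 97.5% to 84%, Ndufa5, from 86.8% to 71.4%, and Ndufb10, from 90.6% to 78.5%. In each of these 4 the reads that took its place were largely single-exon reads, which grew from 4 to 82 in Ndufa1, from 1 to 30 in Ndufb6, from 7 to 59 in Ndufa5 and from 4 to 53 in Ndufb10. Each of the 4 was also among the members called higher in replicate 2. The share of known transcripts differed in 6 of 40 members, beside 11.0% of 5749 genes, 1.06% as higher and 9.91% as lower. Without single-exon models 1 of 40 was called, beside 6.21% of 5167 genes. It rose in Ndufa4 and fell in those 4 and in Ndufb4.

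Single-exon reads grew from 2.82% to 5.62% of the members' reads and from 7.61% to 10.1% of all gene reads. Their share was higher in replicate 2 in 34 members, lower in 8 and equal in 3. Core subunits had few, 0.264% and 1%, supernumerary subunits 4.01% and 7.71%, and assembly factors 14% and 15.7%. Among assembly factors, Ndufaf7 had 13 of 52 and 25 of 93 reads in a single exon. In Ndufaf2, 5 of 9 and 8 of 18 reads were single-exon reads. Ndufaf6 used a coding exon of 57 bases, chr4:11066651-11066707, in 5 of 11 and 12 of 16 reads that spanned it, too few to tell the libraries apart. It was chosen after its values were seen.

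**Figure D4:**
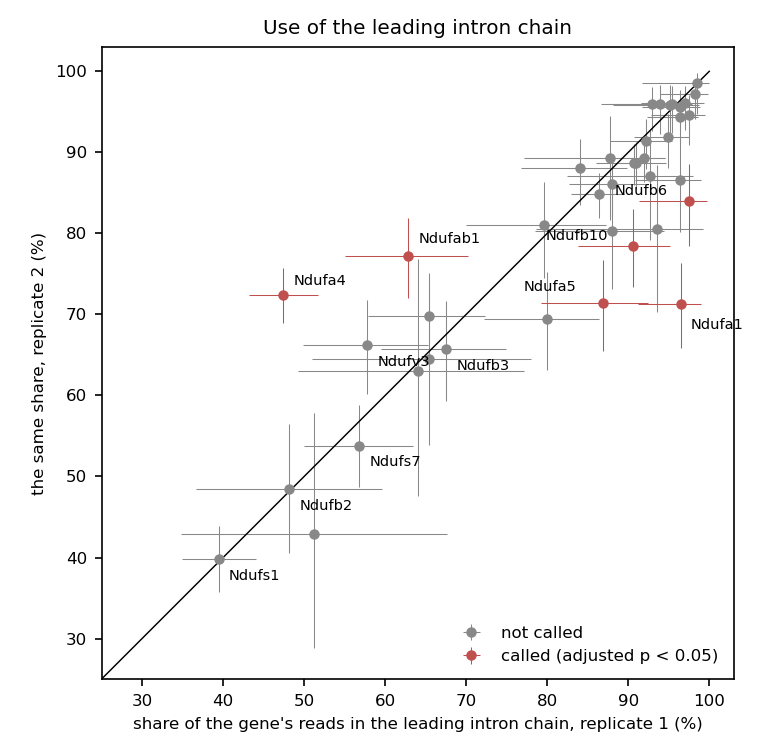
Share of a gene's reads in its leading intron chain in replicate 1 (horizontal, %) against replicate 2 (vertical, %) for 40 members, with 95% Clopper-Pearson intervals and the line of equal shares. Ndufa4 and Ndufab1 lie above the line, Ndufa1, Ndufa5, Ndufb10 and Ndufb6 below it, and Ndufs1, at 39.4% and 39.8%, is the lowest on both axes.

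The members lie on 17 chromosomes, with 6 on chromosome 17 and only Ndufa1 and Ndufb11 on X. Their start sites often faced that of another gene. In M21, 19 of 45 members, 42.2%, had a protein-coding gene starting within 500 bases on the opposite strand in a divergent arrangement, beside 13.4% of 12584 protein-coding genes detected in both libraries and 8.89% of all 22028. The count includes pairs whose annotated 5′ ends overlap, Ndufs1 with Eef1b2 and Ndufs6 with Mrpl36 among them. Ndufa13, also in such a pair, was counted from the annotated 5′ exon that none of its reads joined. The partners ranged from Rps28, 10 bases from Ndufa7 with 109 and 210 reads, Eef1b2 beside Ndufs1 with 60 and 101, and Mrpl36 beside Ndufs6 with 27 and 66, to Asb15 beside Ndufa5 and Morn5 beside Ndufa8, both with 0 reads.

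RefSeq start regions (GRCm38.p6, from 250 bases before to 50 bases after the start) were at hand for 40 of the 45 members. The letters AAGATGGCG, a form of the site bound by the factor YY1, occurred on either strand in 6 of 40, 15%, beside 3.54% of 10301 detected genes and 1.64% of all 27025 genes with such a region. In all 6 they lay downstream of the listed start and on the gene's own strand. The letters hold an ATG, and whether it is the start codon of these genes, or of the other genes counted, was not tested. They are shown in windows of 30 bases, 5′ to 3′, with these letters in capitals.
Ndufa9: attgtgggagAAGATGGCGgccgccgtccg
Ndufaf8: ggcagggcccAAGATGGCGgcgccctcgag
Ndufc1: cctgcggaacAAGATGGCGccgtccgtagt
Ndufs4: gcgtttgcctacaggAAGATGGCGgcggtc
Ndufs6: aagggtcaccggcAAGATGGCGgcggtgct
Ndufs7: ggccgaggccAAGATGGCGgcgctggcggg
The letters GCGCATGCG, a form of the site of NRF1, a regulator known for respiratory chain genes, occurred in 4 of 40, 10%, beside 4.07% of detected genes. In Ndufa8 they lay on the opposite strand, so that the capitals show their reverse complement.
Ndufa8: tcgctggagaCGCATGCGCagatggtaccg
Ndufa11: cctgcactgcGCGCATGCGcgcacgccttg
Ndufaf4: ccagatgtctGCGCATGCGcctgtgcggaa
Ndufaf5: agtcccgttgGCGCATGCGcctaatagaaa
The ETS-type letters CCGGAAG occurred in 6 of 40, 15%, beside 19.7% of detected genes, and CCAAT in 14 of 40, 35%, beside 42.6%. The motifs were chosen with the start regions in view, those of YY1 and NRF1 in a shorter form after a longer one had been searched, and a match is a description of the letters and not of a bound factor.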

How the data were processed

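The authors deposited whole-number, unnormalised read counts, a table of transcript models per library, with model annotations in mm10 and GENCODE M21, per the file headers. Aligner and versions: not given in the sources used here. The members and gene lists were chosen with earlier results of these data known. Counts were summed per gene and divided by reads in annotated mouse genes, leaving out spike-ins (11058 and 17139 reads) and unannotated loci (30509 and 62532). Log2 ratios used a prior of 0.5 reads. Fisher's exact test compared genes of 10 or more reads over the pair of libraries, and shares of reads where each library had 20 or more, with Benjamini-Hochberg adjustment, checked on simulated data. Under TMM factors and DESeq2 size factors an exact binomial test on the scaled library sizes took its place. Intervals cover counting error only. Lengths are those of the models and not of reads. Named genes are the core subunits, the 10 highest and 5 lowest members, the called members with the 5 largest ratios each way, those with a further chain of at least 10%, the mt-Nd genes and other listed assembly factors. The values of 1 member are not reported here, though it counts in the totals. Tools were Python 3.11.15, SciPy 1.17.1, edgeR 4.0.16 and DESeq2 1.42.0.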

Additional observations from a re-analysis of the deposited data

Results flagged for a closer look

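Reads outside annotated genes were not used above. Of the 45 members, 2 had more than 3 such reads on the opposite strand in both libraries, the limit that a count of 0 allows, and 20 had none in either library. Over Ndufa13 there were 12 in replicate 1 and 16 in replicate 2, mostly in a single exon that ends at chr8:69901136 on the plus strand, within the gene. Over Ndufs6 there were 6 in replicate 1 and 7 in replicate 2, each a single exon on the plus strand of chromosome 13 within the gene. The models are those of the authors, and the cause of these reads was not tested.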

How the results depend on the processing

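Against 13 members called between libraries, TMM gave 28, DESeq2 size factors 31 and leaving out genes over 10-fold different 28, all higher. These stood beside 31.4%, 31.4% and 26.4% of all genes. On the gene-read scale, edgeR's exact test with an assumed coefficient of variation of 0.2 gave 0, beside 13.4% of all genes. The other 6 settings gave 9 to 14, beside 21.5% to 52.3% of all genes. Log2 ratios that turned positive, and passed the test before or after, under TMM, size factors and the 10-fold exclusion, in this order, were 0.25, 0.31 and 0.26 for Ndufa10, 0.024, 0.080 and 0.032 for Ndufa4, 0.011, 0.067 and 0.020 for Ndufs1 and 0.34, 0.40 and 0.35 for Ndufs3. Ndufb3, Ndufs8 and Ndufv3 were positive under all 3 settings but passed the test only under size factors (0.40, 0.37 and 0.38). Ndufa9, Ndufb4, Ndufs4 and Ndufaf5, among others, turned positive under all 3 without passing. Ndufa4 turned positive with known transcripts alone (0.31) and without ISM reads (0.34). Their construction moves the point of no change or removes reads, and no other cause was tested. The summed level moved to 9751 CPM with known transcripts alone and to 10503 CPM without genes over 10-fold different, and lay between 8862 and 9305 CPM leaving out either library. The median log2 level, 7.49, lay between 7.25 and 7.63. Leading chain use was called in 2 of 38 members without ISM reads, beside 6.22% of 4981 genes, and the known share in 1 of 40 without single-exon models, beside 6.21% of 5167 genes, against 6 each. Detection kept 43 of 45 at 10 reads in both libraries, and chain counts were 8 to 14. No paired analysis was possible because both libraries belong to 1 group. Below about 20 reads, as in the 3 lowest assembly factors, counting error alone spans several-fold.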
